A study of Mus musculus with 12 samples.

Results

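The 41 genes described here are the transcription factor gene Atf4, its regulators and partners, and the genes through which mammalian cells make and import amino acids. They were chosen by gene symbol, with no measured value in the rule but with earlier results of these data known. They make up 41 of the 55487 genes in the expression table. All 41 passed the filter on low values, which kept 14202 genes in all. Ddit3 has a second entry in the table, listed at 0 in all 12 libraries, which was not used.

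RNA was sequenced from primary mouse vascular smooth muscle cells (VSMCs) in 4 groups of 3 libraries. These were cells labelled TIGAR knockout with PDGF-BB, cells labelled TIGAR knockout left untreated, wild-type cells with PDGF-BB, and untreated wild-type cells. PDGF-BB is a growth factor that drives smooth muscle cells to divide and migrate, and was given at 40 µg/L for 6 h. TIGAR is a phosphatase that restrains glycolysis. All cells were taken from mice 4 to 6 weeks old, grown in DMEM/F12 medium with serum and used at passages 4 to 6. The labels give neither the allele of the knockout nor the sex of the mice. Nor do they state if the 3 libraries per group stand for different mice or dishes, and a p-value here measures the spread among these libraries, which may be technical.

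ATF4 is the main effector of the integrated stress response. Kinases that sense amino acid shortage, unfolded protein, double-stranded RNA or lack of heme phosphorylate the initiation factor eIF2, which lowers general translation and raises translation of the Atf4 message. Growth factor signalling through the kinase complex mTORC1 also raises ATF4 in dividing cells. ATF4 pairs with C/EBP proteins on a composite DNA element, the C/EBP-ATF response element, and turns on genes for amino acid transport, for serine, asparagine and proline synthesis, and for mitochondrial one-carbon metabolism.

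Promoter windows are shown for the members that carry the core of this element, since this is the sequence known for ATF4 binding and these members did not all move together. The core TGATGNAA was searched on both strands in the RefSeq promoters of build GRCm38.p6, which run from 250 bases before to 50 bases after a start site. In the opposite direction the core reads TTNCATCA. Of the 41 members, 35 had a RefSeq promoter entry, and 9 of the 35 (25.7%) held the core, against 1219 of 27025 genes in the table (4.51%). Capitals mark the core, and each sequence is written 5′ to 3′ on the strand of its gene.
Chac1, chr2:119351009-119351096, plus strand: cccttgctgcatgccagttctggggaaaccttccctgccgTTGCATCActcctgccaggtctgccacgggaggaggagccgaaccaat
Trib3, chr2:152344028-152344057, minus strand: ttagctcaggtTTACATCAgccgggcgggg
Slc7a11, chr3:50443615-50443719, minus strand: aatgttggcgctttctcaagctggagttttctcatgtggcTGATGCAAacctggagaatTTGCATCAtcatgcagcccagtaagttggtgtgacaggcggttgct
Asns, chr6:7693214-7693243, minus strand: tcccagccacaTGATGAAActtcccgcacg
Nupr1, chr7:126625562-126625591, minus strand: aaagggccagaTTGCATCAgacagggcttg
Slc1a4, chr11:20332699-20332728, minus strand: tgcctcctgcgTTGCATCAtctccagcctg
Pycr1, chr11:120643804-120643891, minus strand: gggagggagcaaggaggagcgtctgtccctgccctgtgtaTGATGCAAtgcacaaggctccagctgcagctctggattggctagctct
Pck2, chr14:55540123-55540210, plus strand: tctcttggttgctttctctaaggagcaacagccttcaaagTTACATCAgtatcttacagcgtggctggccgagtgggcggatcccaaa
Vldlr, chr19:27216809-27216838, plus strand: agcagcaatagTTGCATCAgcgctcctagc
Slc7a11 held 2 cores facing opposite ways, 1 starting 66 bases before the start site. The longer form TGATGNAAT, which overlaps the core, was found in Nupr1 and Pycr1 only (5.71% of the 35, against 1.08% of all genes with an entry). The cyclic AMP element TGACGTCA was found in Ppp1r15a alone (2.86%, against 2.03%). A match is a stretch of letters, not a measured binding site.

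Values are CPM, the reads of a gene per 1000000 reads counted in a library, from libraries of 14953807 to 21698488 reads. Differences between groups are on the log2(CPM + 1) scale, which understates the change of genes with low values. Each has its standard error (SE) and a p-value from limma, fitted to all 12 libraries and adjusted by the Benjamini-Hochberg method over the 14202 genes. A gene is said to have risen or fallen where the adjusted p was under 0.05. The comparisons share libraries: the response to PDGF-BB in wild-type cells and the genotype comparison without PDGF-BB both use the untreated wild-type libraries, for example.

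The RNA level of Tigar under each label was read first. Tigar, on chr6:127085116-127109557, had 14.6, 14.7 and 16.2 CPM in labelled knockout cells with PDGF-BB, against 11.5, 11.5 and 12.6 CPM in wild-type cells with PDGF-BB. It had 10.0, 12.2 and 11.3 CPM in untreated labelled knockout cells, against 6.99, 8.61 and 6.91 CPM in untreated wild-type cells. Tigar was thus higher under the knockout label, by a log2 difference of 0.52 ± 0.11 (SE; adjusted p = 0.0021) untreated and 0.33 ± 0.11 (SE; adjusted p = 0.029) with PDGF-BB. Reads counted over the whole gene do not show if its protein was made, and the allele is not given, so these values cannot settle the genotype. The label is written as such throughout.

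Cell type markers were read next. Of 8 smooth muscle markers, Acta2 was abundant, at 1132.8 to 2863.1 CPM, Tagln was at only 2.98 to 7.12 CPM, and Des stayed under 1 CPM in all 12 libraries. All 6 endothelial markers passed the filter, and their summed level was 552 to 565 CPM in labelled knockout cells with PDGF-BB and 588 to 663 CPM in those untreated, against 72.3 to 75.4 CPM in wild-type cells with PDGF-BB and 86.1 to 94.3 CPM in those untreated. The 6 macrophage markers, with Itgam under 1 CPM everywhere, summed to 27.7 to 31.1 and 27.4 to 32.8 CPM in the labelled knockout groups with and without PDGF-BB, against 91.0 to 127 and 118 to 127 CPM in the wild-type groups. The 6 fibroblast markers, with Lum under 1 CPM everywhere, summed to 6302.5 to 6524.5 and 4371.5 to 4769.0 CPM in the labelled knockout groups, against 2306.0 to 2749.9 and 1724.0 to 1821.8 CPM in the wild-type groups. Nearly all of that sum was Col1a1, while Pdgfra had 34.2 to 38.2 CPM in treated labelled knockout cells, against 60.6 to 72.5 CPM in treated wild-type cells, and the Dcn ranges of the labels overlapped with and without PDGF-BB. The smooth muscle markers summed to 3146.0 to 3228.7 and 2258.9 to 3465.7 CPM in the labelled knockout groups, against 1470.3 to 1958.6 and 1808.3 to 2293.6 CPM in the wild-type groups. Most of that sum was Acta2. Without PDGF-BB the ranges of Acta2, Myh11, Lmod1 and Myocd overlapped between the labels, while Cnn1, Smtn and Tagln were higher under the knockout label without overlap. Epithelial and adipocyte markers were under 1 CPM in every library. The part of these cell type differences in the genotype comparisons and in the interaction below was not tested, and in bulk RNA fewer cells of a type cannot be told apart from less RNA per cell.

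A pair of libraries stood apart within their groups. The first wild-type library with PDGF-BB was the highest of its group for 27 of the 41 members, against 48.4% of all genes tested. Its deviation from its group went down with exon length (Spearman's rho of −0.577 across 14202 genes, against −0.254 to 0.169 in the libraries of the other groups). The other treated wild-type libraries, each set against a mean that includes the first, had 0.431 and 0.526. The first untreated labelled knockout library was the lowest of its group for 32 of 41 members, against 33.8% of all genes. The member calls that change without either library are named with each comparison below.

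**Figure D1:**
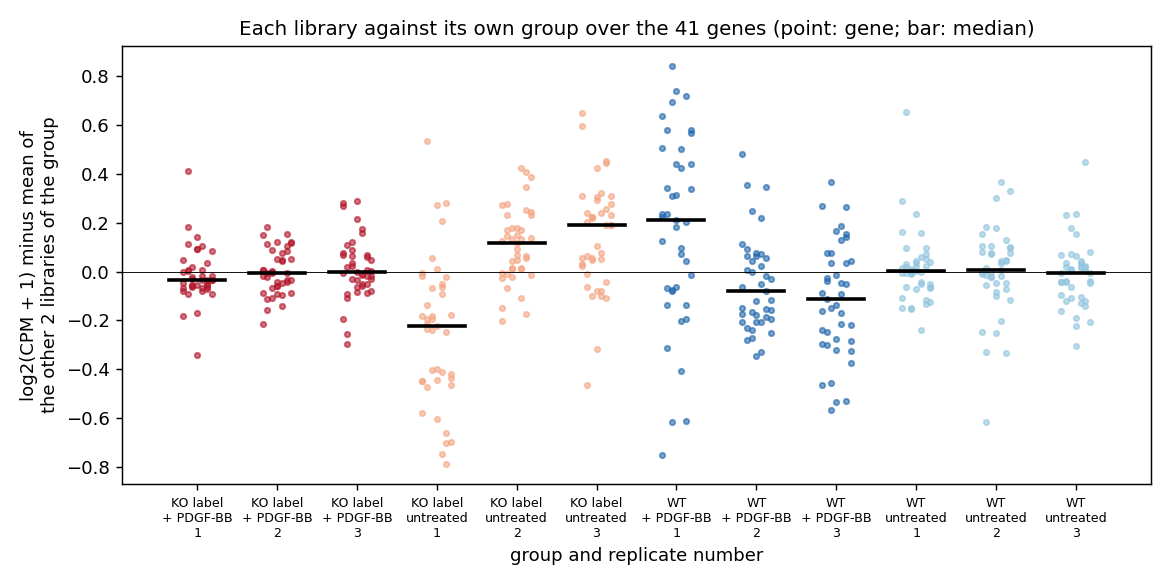
Difference of each gene, in log2(CPM + 1), from the mean of the other 2 libraries of its group, for the 12 libraries; points are the 41 genes and bars their medians. The first untreated labelled knockout library has a median of −0.22 and the first wild-type library with PDGF-BB a median of 0.21, while the medians of the PDGF-BB-treated labelled knockout and the untreated wild-type libraries lie close to 0.

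In wild-type cells PDGF-BB raised most of these genes. Of the 41, 28 rose, 5 fell and 8 did not pass the test, so that 80.5% were called, against 59.4% of all genes tested (25.0% higher and 34.4% lower). The median log2 difference of the members was 0.76, against −0.08 over all genes. At least a 2-fold change was called for 17 members, against 9.94% of all genes. The largest rises were in the branched-chain aminotransferase Bcat1, the mitochondrial folate enzymes Mthfd2 and Mthfd1l, the serine synthesis enzyme Psat1 and asparagine synthetase Asns. The falls were in Vldlr, Shmt1, Slc38a2, Slc7a3 and Ppp1r15a. Libraries with and without PDGF-BB did not overlap for 29 members that were higher and 5 that were lower, against 62.3% of all genes in either direction. Without the first wild-type library with PDGF-BB, 28 members rose and 9 fell, against 63.8% of all genes called in either direction. The falls added were those of Nupr1, Cbs, Pck2 and Gdf15 (adjusted p of 9.3e-07 to 0.027). Without the first untreated labelled knockout library Pycr1 was called higher (adjusted p = 0.0493). Single libraries ended 3 of the calls: Slc1a5 was lost without wild-type replicate 2 with PDGF-BB or untreated replicate 2 or 3 (adjusted p up to 0.097), Cebpb without untreated replicate 2 or 3 (up to 0.0795), and Slc6a9 without any of 5 wild-type libraries, all but the first with PDGF-BB (up to 0.170).

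In cells labelled TIGAR knockout the response was centred near 0. With all 12 libraries in the fit, 13 rose, 10 fell and 18 did not pass the test, so that 56.1% were called, against 42.4% of all genes (17.6% higher and 24.8% lower). The median log2 difference was 0.03, against −0.07 over all genes. At least a 2-fold change was called for 5 members, against 4.13% of all genes, and libraries did not overlap for 20 that were higher and 13 that were lower, against 63.2% of all genes in either direction. Bcat1, Mthfd1l, Psat1, Slc7a1 and Ddit4 rose the most, and Slc38a2, Vldlr, Slc6a9, Pck2 and Slc7a3 fell the most. All 13 that rose had also risen in wild-type cells. Of the other 15 that had risen in wild-type cells, 13 were not called here and 2, Trib3 and Slc6a9, fell. The number called depended on the fit. Fitted to the compared groups alone, 17 rose and 12 fell in labelled knockout cells, against 55.6% of all genes called, and 26 rose and 5 fell in wild-type cells, against 50.1% of all genes. Without the first treated wild-type library, 19 rose and 12 fell in labelled knockout cells, against 57.1% of all genes. The calls added there were rises of Atf4, Ddit3, Eif4ebp1, Phgdh, Psph and Asns and falls of Atf5 and Gdf15 (adjusted p of 0.00016 to 0.044), although their log2 differences do not use that library. With scaling by TMM (trimmed mean of M-values) in place of the deposited scaling the split was 16 higher and 7 lower, against 2989 higher and 3071 lower of all genes. The falls were the less stable part: 5 were called without labelled knockout replicate 1 with PDGF-BB, and 6 without its replicate 3 or without untreated replicate 2 or 3. Leaving out 1 library ended the call of Nupr1 for 10 of the 12 libraries, Shmt1 for 8, Pycr1 for 5, Trib3 for 4 and Slc7a3 for 1, with adjusted p up to 0.160.

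The difference between these responses was tested directly as an interaction. None of the 41 was called with a larger log2 response in labelled knockout than in wild-type cells, and 13 were called with a smaller one, that is 31.7% called against 3.92% of all genes (2.25% higher and 1.68% lower). At an unadjusted p under 0.05, limma gave 2 higher members. On the recovered reads edgeR called 0 higher and 16 lower, against 1.89% of all genes lower, and DESeq2 0 higher and 21 lower, against 3.88%. A difference of 2-fold or more was called for 6 members, against 0.845% of all genes. The median difference was −0.53 over the members and 0.0054 over all genes, and 6 of the 41 were above 0. The 13 were Mthfd2, Trib3, Asns, Bcat1, Slc6a9, Shmt2, Slc7a5, Mthfd1l, Atf4, Aldh18a1, Atf5, Slc1a4 and Xpot, and all 13 had risen in wild-type cells. The wild-type response is subtracted in the interaction, so the rise and the interaction call are not independent results. Without the first wild-type library with PDGF-BB the test called 22 lower and 2 higher, but it also called more of all genes, 5.22% lower and 5.74% higher. The 9 lower calls added were Chac1, Psat1, Psph, Aldh1l2, Pycr1, Pck2, Slc7a11, Slc7a1 and Slc38a2, and the 2 higher were Shmt1 and Vldlr, which fell less in labelled knockout cells. Without the first untreated labelled knockout library 21 were lower, against 1.76% of all genes, with Chac1, Psat1, Phgdh, Psph, Aldh1l2, Pycr1, Pck2 and Slc7a11 added. The calls of Atf4, Atf5, Bcat1 and Xpot each ended when any of 7 or 8 single libraries was left out (adjusted p up to 0.117). These were labelled knockout libraries with PDGF-BB, untreated labelled knockout replicates 2 and 3, or untreated wild-type libraries. The other 9 calls held in all 22 alternative settings. The endothelial, macrophage and fibroblast marker sums differed between the genotype labels as given above, and their part in the interaction was not tested.

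**Figure D2:**
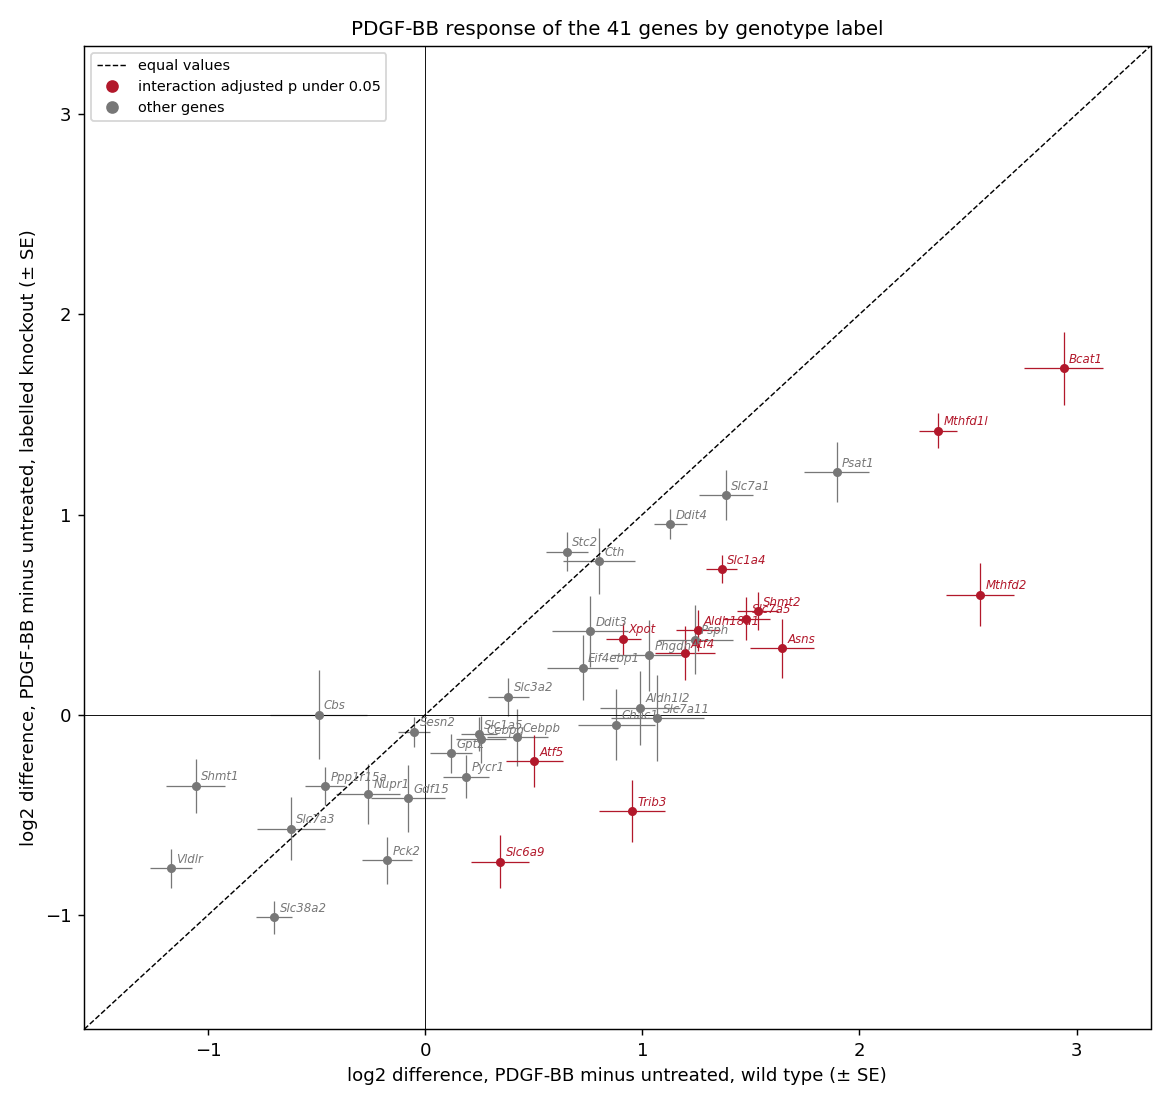
Log2 difference between PDGF-BB and untreated libraries for the 41 genes, in labelled knockout cells (vertical axis) against wild-type cells (horizontal axis); lines through the points are ± SE, the broken line marks equal responses, and the 13 genes with an interaction past the threshold are red. All red points lie below the broken line, and Trib3 and Slc6a9 lie above 0 in wild-type and below 0 in labelled knockout cells.

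Without PDGF-BB, most of the genes were higher under the knockout label. Of the 41, 23 were higher in untreated labelled knockout than in untreated wild-type cells, 5 were lower and 13 were not called, so that 68.3% were called against 34.0% of all genes (9.15% higher and 24.8% lower). The median log2 difference was 0.39, against −0.13 over all genes. At least a 2-fold difference was called for 8 members, against 5.26% of all genes, and libraries did not overlap for 24 higher and 6 lower members, against 54.7% of all genes. Trib3, Aldh1l2, Slc7a11, Gdf15 and Mthfd2 were higher by the most, and Vldlr, Shmt1, Slc1a5, Slc7a3 and Cebpb were the 5 lower. TMM scaling moved the median of all genes to −0.0071 and gave 25 higher and 3 lower members, against 1930 higher and 2034 lower of all genes. Atf4 and Atf5 were then added as higher, and the lower calls of Cebpb and Slc7a3 were lost. Leaving out 1 library ended the calls of Eif4ebp1 and Pck2 for 8 of the 12 libraries, Phgdh for 5, Slc7a3 for 3, and Mthfd1l and Cebpb for 2, with adjusted p up to 0.183. Without the first untreated labelled knockout library 25 were higher and 4 lower, with Atf5 and Psph added and Cebpb lost. Without the first treated wild-type library 25 were higher and 6 lower, with Atf4 and Atf5 added as higher and Nupr1 as lower. Over the fits without 1 library, 3662 to 7098 of all genes were called, against 4823 with all libraries, and this fit called the most.

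With PDGF-BB, 7 of the 41 were higher under the knockout label, 13 lower and 21 not called, so that 48.8% were called, against 37.2% of all genes (10.6% higher and 26.6% lower). The median log2 difference was −0.21, against −0.14 over all genes. A difference of 2-fold or more was called for 2 members, against 4.72% of all genes, and libraries did not overlap for 8 higher and 17 lower members, against 49.5% of all genes. Gdf15, Cbs, Slc38a2, Stc2 and Aldh1l2 were higher by the most, and Vldlr, Cebpb, Slc1a5, Shmt2 and Psat1 lower by the most. The balance depended on scaling, since TMM gave 9 higher and 9 lower, against 1928 higher and 2139 lower of all genes. Mthfd2 and Mthfd1l were higher under the knockout label without PDGF-BB and lower with it. Without the first wild-type library with PDGF-BB 7 were higher and 15 lower, and the median was −0.12. Ppp1r15a was then added as higher and Aldh18a1, Slc7a5 and Xpot as lower, and Aldh1l2 and Slc7a3 were lost. Without the first untreated labelled knockout library 8 were higher and 16 lower, with Pycr1 added as higher and Asns, Aldh18a1 and Slc7a5 as lower. Over the fits without 1 library, 3901 to 6192 of all genes were called, against 5284 with all libraries. Leaving out labelled knockout replicate 1, 2 or 3 with PDGF-BB left 4 higher members. In all 23 alternative settings 10 of the 20 calls held, those of Gdf15, Slc38a2, Stc2, Vldlr, Cebpb, Slc1a5, Shmt2, Psat1, Mthfd1l and Mthfd2. Leaving out 1 library ended the calls of Slc3a2 for 10 libraries, Aldh1l2 for 8, Slc7a3 and Ddit4 for 4, Atf5 for 3, Nupr1 for 2, and Cbs and Psph for 1 (adjusted p up to 0.141). The endothelial, macrophage and fibroblast marker sums given above differed between the labels in both genotype comparisons, and their part in these results was not tested.

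**Figure D3:**
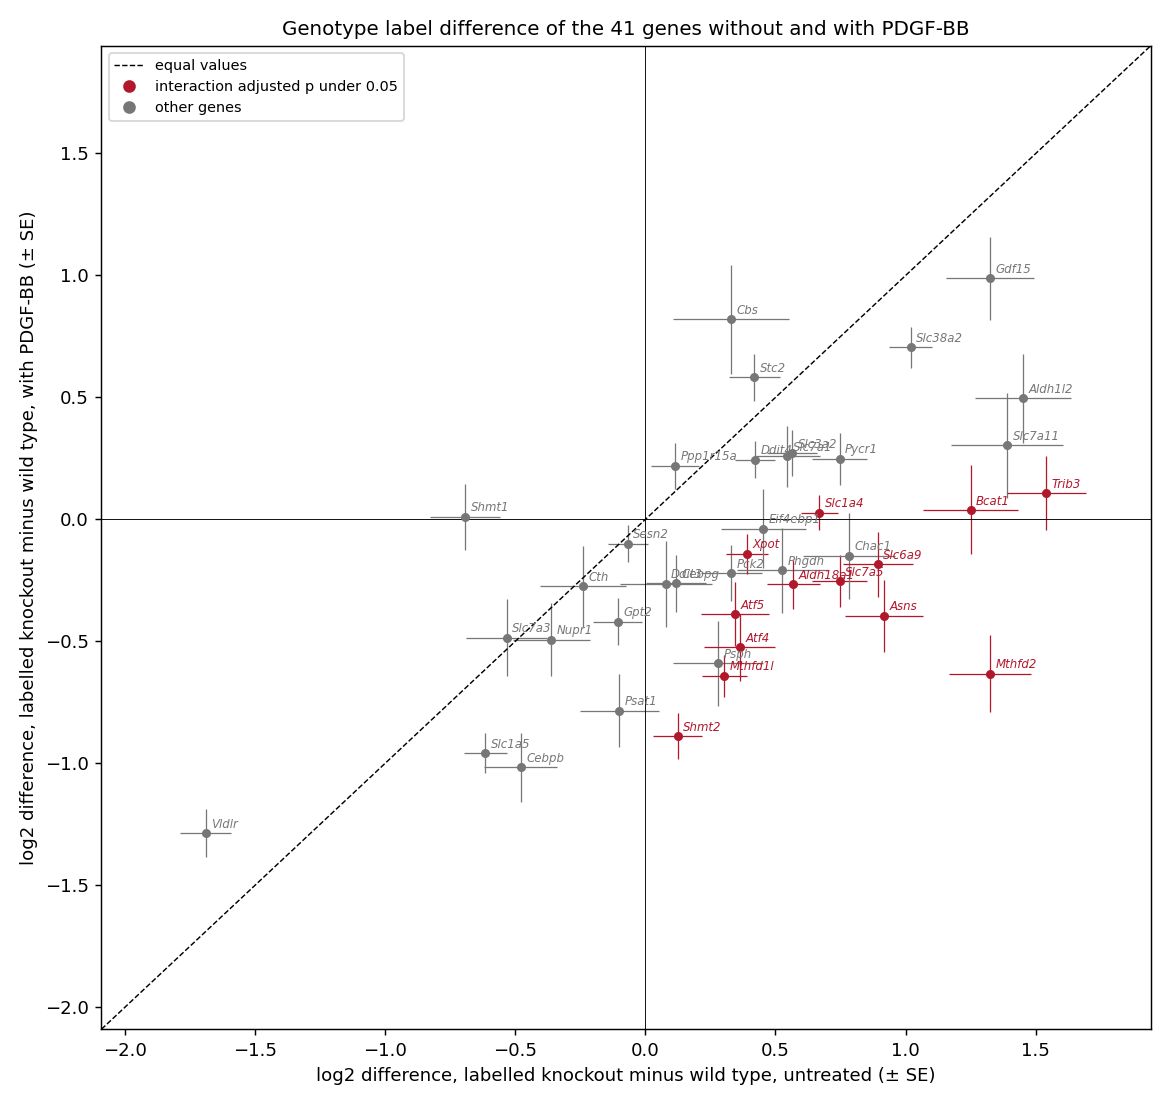
Log2 difference between labelled knockout and wild-type libraries for the 41 genes, with PDGF-BB (vertical axis) against untreated (horizontal axis); lines are ± SE and the 13 genes with an interaction past the threshold are red. Of the red points, Mthfd2, Asns and Atf4 lie right of 0 and below it, and Vldlr is the lowest gene on both axes.

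Transcription factors come first. Atf4, on chr15:80255184-80257541, had 205, 206 and 205 CPM in labelled knockout cells with PDGF-BB, against 152, 176 and 169.9 CPM in those untreated. In wild-type cells it had 398, 273 and 239 CPM with PDGF-BB, against 128, 135 and 123 CPM untreated. The wild-type groups did not overlap, the first treated library was the highest of the 12, and the 3 treated labelled knockout libraries lay within 1 CPM of each other. The log2 response was 0.31 ± 0.14 (SE; adjusted p = 0.086) in labelled knockout cells, which missed the threshold, and 1.20 ± 0.14 (SE; adjusted p = 7.7e-06) in wild-type cells. The responses differed by −0.89 ± 0.19 (SE; adjusted p = 0.021). Without the first treated wild-type library the wild-type response was 0.98 and the difference −0.68 (adjusted p = 4.8e-05). Under the knockout label Atf4 was higher by 0.36 ± 0.14 (SE; adjusted p = 0.056) untreated, short of the threshold, and lower with PDGF-BB, at −0.52 ± 0.14 (SE; adjusted p = 0.0094), with every treated labelled knockout library below every treated wild-type one. That difference was −0.31 without the first treated wild-type library (adjusted p = 0.00075), and its call was lost in the fit of the compared groups alone (adjusted p = 0.0605). The 2 Atf4 differences that missed the threshold passed it without the first treated wild-type library, whose own values enter neither, at adjusted p = 0.00016 for PDGF-BB in labelled knockout cells and 4.2e-05 for the label without PDGF-BB. Both also passed with TMM, edgeR, DESeq2 and the fit of the compared groups alone. In those fits the adjusted p was 0.00027 to 0.046 for PDGF-BB in labelled knockout cells. For the label without PDGF-BB it was 0.00033 to 0.014, and both differences were rises. Over all alternatives their adjusted p ran from 0.00016 to 0.25 and from 1.5e-07 to 0.17.

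Atf5, a close relative of Atf4 that is also translated under stress, had 168, 165 and 169 CPM in labelled knockout cells with PDGF-BB, against 176, 213 and 202 CPM untreated. Wild-type cells had 287, 192 and 190.4 CPM with PDGF-BB, against 149.7, 168 and 146 CPM untreated. Every treated labelled knockout library was below every untreated one, and every treated wild-type library above every untreated one, with log2 responses of −0.23 ± 0.13 (SE; adjusted p = 0.17) and 0.50 ± 0.13 (SE; adjusted p = 0.0048), and a difference of −0.73 ± 0.18 (SE; adjusted p = 0.044). Under the knockout label Atf5 was called lower with PDGF-BB and was not called untreated. With TMM, edgeR or DESeq2 the call with PDGF-BB was lost (adjusted p of 0.096 to 0.121). The same fits called Atf5 higher under the knockout label untreated (adjusted p of 0.0023 to 0.013). Ddit3, which encodes the stress factor CHOP, gave log2 responses of 0.42 (adjusted p = 0.074) in labelled knockout and 0.76 (adjusted p = 0.0024) in wild-type cells, and the responses were not distinguished (−0.34 (adjusted p = 0.49)).

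Trib3 encodes a pseudokinase that binds ATF4 and CHOP and dampens them. It had 12.6, 14.0 and 13.0 CPM in labelled knockout cells with PDGF-BB, against 15.2, 21.1 and 20.6 CPM in those untreated. The wild-type libraries had 15.1, 11.2 and 10.5 CPM with PDGF-BB, against 5.42, 6.92 and 5.18 CPM untreated. PDGF-BB thus went with lower Trib3 under the knockout label, at a log2 difference of −0.48 ± 0.15 (SE; adjusted p = 0.022), and with higher Trib3 in wild-type cells, at 0.95 ± 0.15 (SE; adjusted p = 0.00014). The fall was lost without labelled knockout replicate 1 or 3 with PDGF-BB or untreated replicate 2 or 3 (adjusted p of 0.062 to 0.088), whereas the interaction of −1.43 ± 0.22 (SE; adjusted p = 0.0027) held in every setting tried. Trib3 was also the member most raised under the knockout label without PDGF-BB, at 1.54 ± 0.15 (SE; adjusted p = 5.4e-06), while with PDGF-BB the label difference was 0.11 (adjusted p = 0.6).

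Cebpb and Cebpg encode C/EBP partners of ATF4. Cebpb had 23.9, 22.2 and 22.5 CPM in labelled knockout cells with PDGF-BB, against 58.2, 44.7 and 40.6 CPM in wild-type cells with PDGF-BB. Untreated labelled knockout cells had 20.02, 26.7 and 28.5 CPM, against 39.1, 34.2 and 31.9 CPM in untreated wild-type cells. Cebpb was lower under the knockout label with and without PDGF-BB, at log2 differences of −1.02 ± 0.14 (SE; adjusted p = 0.00011) and −0.48 ± 0.14 (SE; adjusted p = 0.018), and the call without PDGF-BB was lost without untreated labelled knockout or wild-type replicate 1 (adjusted p of 0.081 and 0.084). That call was also lost with TMM, edgeR and DESeq2 (adjusted p of 0.085 to 0.097), so it depended on the deposited scaling. The Cebpb exons overlap those of the antisense gene Tmem189 over 20.7% of their length, and the strand setting of the counting is not given in the sources used here. Cebpg was called in none of the 5 comparisons, but with TMM, edgeR or DESeq2 it was higher with PDGF-BB in wild-type cells (adjusted p of 0.014 to 0.021). Nupr1, a small chromatin protein of the stress response, averaged 287 ± 7.97 CPM in treated labelled knockout cells and 416 ± 130.1 CPM in treated wild-type cells (SD, n = 3 each), a log2 difference of −0.49 (adjusted p = 0.02). Nupr1 holds the longer promoter element shown above, and was not called higher with PDGF-BB under either label. Without the first treated wild-type library it fell in wild-type cells, at −0.50 (adjusted p = 9.3e-07).

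Feedback and translation genes split. Ddit4, an inhibitor of mTORC1 that stress and hypoxia induce, had 74.0, 77.1 and 79.6 CPM in labelled knockout cells with PDGF-BB, against 39.1, 38.7 and 39.8 CPM untreated. Its wild-type values were 71.8, 62.8 and 60.0 CPM with PDGF-BB, against 27.0, 30.2 and 29.97 CPM untreated. Every treated library was above every untreated one under both labels, and the log2 responses of 0.95 ± 0.08 (SE; adjusted p = 8.3e-07) and 1.13 ± 0.08 (SE; adjusted p = 7.2e-08) were not distinguished (−0.18 (adjusted p = 0.41)). Sesn2, a leucine sensor upstream of mTORC1, passed no test, with means of 60.2 ± 4.59 and 63.8 ± 4.28 CPM in the labelled knockout groups with and without PDGF-BB, and 64.5 ± 3.56 and 66.8 ± 1.49 CPM in the wild-type groups (SD, n = 3 each).

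Ppp1r15a encodes the phosphatase subunit that reverses eIF2 phosphorylation. It had 35.6, 38.7 and 35.5 CPM in labelled knockout cells with PDGF-BB, against 47.4, 48.6 and 45.4 CPM untreated, and 34.6, 32.2 and 27.4 CPM in wild-type cells with PDGF-BB, against 44.4, 47.3 and 39.1 CPM untreated. The treated libraries were the lower ones in both genotypes, without overlap, at log2 differences of −0.36 ± 0.09 (SE; adjusted p = 0.0079) and −0.46 ± 0.09 (SE; adjusted p = 0.00089). Chac1, which breaks down glutathione, and Eif4ebp1, a repressor of cap-dependent translation, rose in wild-type cells by 0.88 (adjusted p = 0.00078) and 0.73 (adjusted p = 0.0018). In labelled knockout cells their log2 responses were −0.05 (adjusted p = 0.84) and 0.23 (adjusted p = 0.27), and neither interaction passed the test, at −0.93 (adjusted p = 0.056) and −0.49 (adjusted p = 0.27). That of Chac1 was called by edgeR and DESeq2 and without either library that stands apart (adjusted p of 0.0030 to 0.043).

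The serine and one-carbon enzymes had the largest median responses of the 6 roles under both labels. Of these 8, 7 rose and 1 fell with PDGF-BB in wild-type cells, where 25.0% of all genes were higher and 34.4% lower, with a median log2 response of 1.39. In labelled knockout cells 4 rose and 1 fell, against 17.6% of all genes higher and 24.8% lower, with a median of 0.45. Under the knockout label 4 were higher and 1 lower without PDGF-BB, or 50.0% and 12.5% against 9.15% and 24.8% of all genes. With PDGF-BB 1 was higher and 5 lower, or 12.5% and 62.5% against 10.6% and 26.6% of all genes. Serine is made from a glycolytic intermediate by Phgdh, Psat1 and Psph in turn. Shmt2 then splits it in mitochondria to glycine and a one-carbon unit, which Mthfd2, Mthfd1l and Aldh1l2 carry onward.

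Mthfd2, on chr6:83305691-83325908, had 45.9, 41.7 and 41.2 CPM in labelled knockout cells with PDGF-BB, against 20.9, 30.5 and 34.3 CPM in those untreated. Its wild-type levels were 77.7, 61.7 and 62.9 CPM with PDGF-BB, against 10.6, 12.3 and 9.06 CPM untreated. No groups overlapped: untreated wild-type cells were lowest, untreated labelled knockout cells next, then treated labelled knockout cells, and treated wild-type cells were highest. The log2 response was 0.60 ± 0.16 (SE; adjusted p = 0.0078) under the knockout label and 2.56 ± 0.16 (SE; adjusted p = 2.9e-08) in wild-type cells. The difference of −1.96 ± 0.22 (SE; adjusted p = 0.00043) was the largest interaction among the 41 in size, and was −1.85 without the first treated wild-type library (adjusted p = 7.8e-06). Mthfd2 was higher under the knockout label by 1.32 (adjusted p = 2.7e-05) untreated and lower with PDGF-BB, at −0.63 (adjusted p = 0.0072).

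Mthfd1l had 41.6, 39.2 and 45.2 CPM in labelled knockout cells with PDGF-BB, against 14.7, 16.0 and 14.5 CPM untreated. In the wild type it had 68.9, 64.3 and 64.5 CPM with PDGF-BB, against 13.0, 10.8 and 12.3 CPM untreated. Treated libraries were far above untreated ones under both labels, by 1.42 ± 0.09 (SE; adjusted p = 8.9e-08) and 2.36 ± 0.09 (SE; adjusted p = 4.3e-10), and the responses differed by −0.94 ± 0.12 (SE; adjusted p = 0.001). Its higher level under the knockout label without PDGF-BB, 0.30 (adjusted p = 0.015), was lost without labelled knockout or wild-type untreated replicate 2 (adjusted p of 0.069 and 0.075).

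Shmt2 had 47.7, 48.2 and 48.8 CPM in treated labelled knockout cells, against 104, 83.5 and 84.2 CPM in treated wild-type cells. Untreated cells were close, with 29.8, 33.6 and 37.1 CPM under the knockout label, against 30.7, 30.2 and 30.7 CPM in the wild type. The label difference was therefore −0.89 ± 0.09 (SE; adjusted p = 9.5e-06) with PDGF-BB and 0.12 (adjusted p = 0.34) without it, and the interaction was −1.01 ± 0.13 (SE; adjusted p = 0.0012). Psat1 was likewise highest in treated wild-type cells, with 69.5, 71.1 and 73.2 CPM in treated labelled knockout cells, against 136, 115 and 120.5 CPM in treated wild-type cells. Its untreated values were 21.5, 34.0 and 37.5 CPM under the knockout label, against 34.0, 33.1 and 30.3 CPM in the wild type. Psat1 rose by 1.21 (adjusted p = 3.3e-05) and 1.89 (adjusted p = 2.8e-07) with PDGF-BB and was lower under the knockout label with PDGF-BB, at −0.78 ± 0.15 (SE; adjusted p = 0.0014), but its interaction of −0.68 (adjusted p = 0.095) missed the threshold. It passed with DESeq2 (adjusted p = 0.021) and without either library that stands apart (adjusted p of 0.0016 and 0.043).

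Shmt1, the cytosolic counterpart of Shmt2, went the other way. It had 2.21, 2.04 and 2.37 CPM in treated and 2.75, 3.08 and 3.50 CPM in untreated labelled knockout cells, and 2.55, 2.19 and 1.84 CPM in treated and 5.92, 4.68 and 6.37 CPM in untreated wild-type cells. Only the untreated wild-type libraries stood out, above all 9 others. Shmt1 fell with PDGF-BB, at log2 differences of −0.35 (adjusted p = 0.0496) in labelled knockout cells and −1.06 ± 0.14 (SE; adjusted p = 2e-05) in wild-type cells. The first was a call at the threshold that 8 of the 12 leave-one-out fits lost (adjusted p up to 0.160). Aldh1l2 had 27.7, 30.8 and 27.4 CPM in treated and 20.3, 33.9 and 31.5 CPM in untreated labelled knockout cells, and 14.8, 23.7 and 22.7 CPM in treated and 8.95, 10.2 and 9.59 CPM in untreated wild-type cells. It was higher under the knockout label by 1.45 ± 0.18 (SE; adjusted p = 4.9e-05) untreated and by 0.50 (adjusted p = 0.0494) with PDGF-BB, and the second call ended in 8 leave-one-out fits (adjusted p up to 0.141). Phgdh and Psph rose in wild-type cells, by 1.03 (adjusted p = 0.00022) and 1.24 (adjusted p = 4.4e-05), and gave 0.30 (adjusted p = 0.19) and 0.38 (adjusted p = 0.099) in labelled knockout cells.

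**Figure D4:**
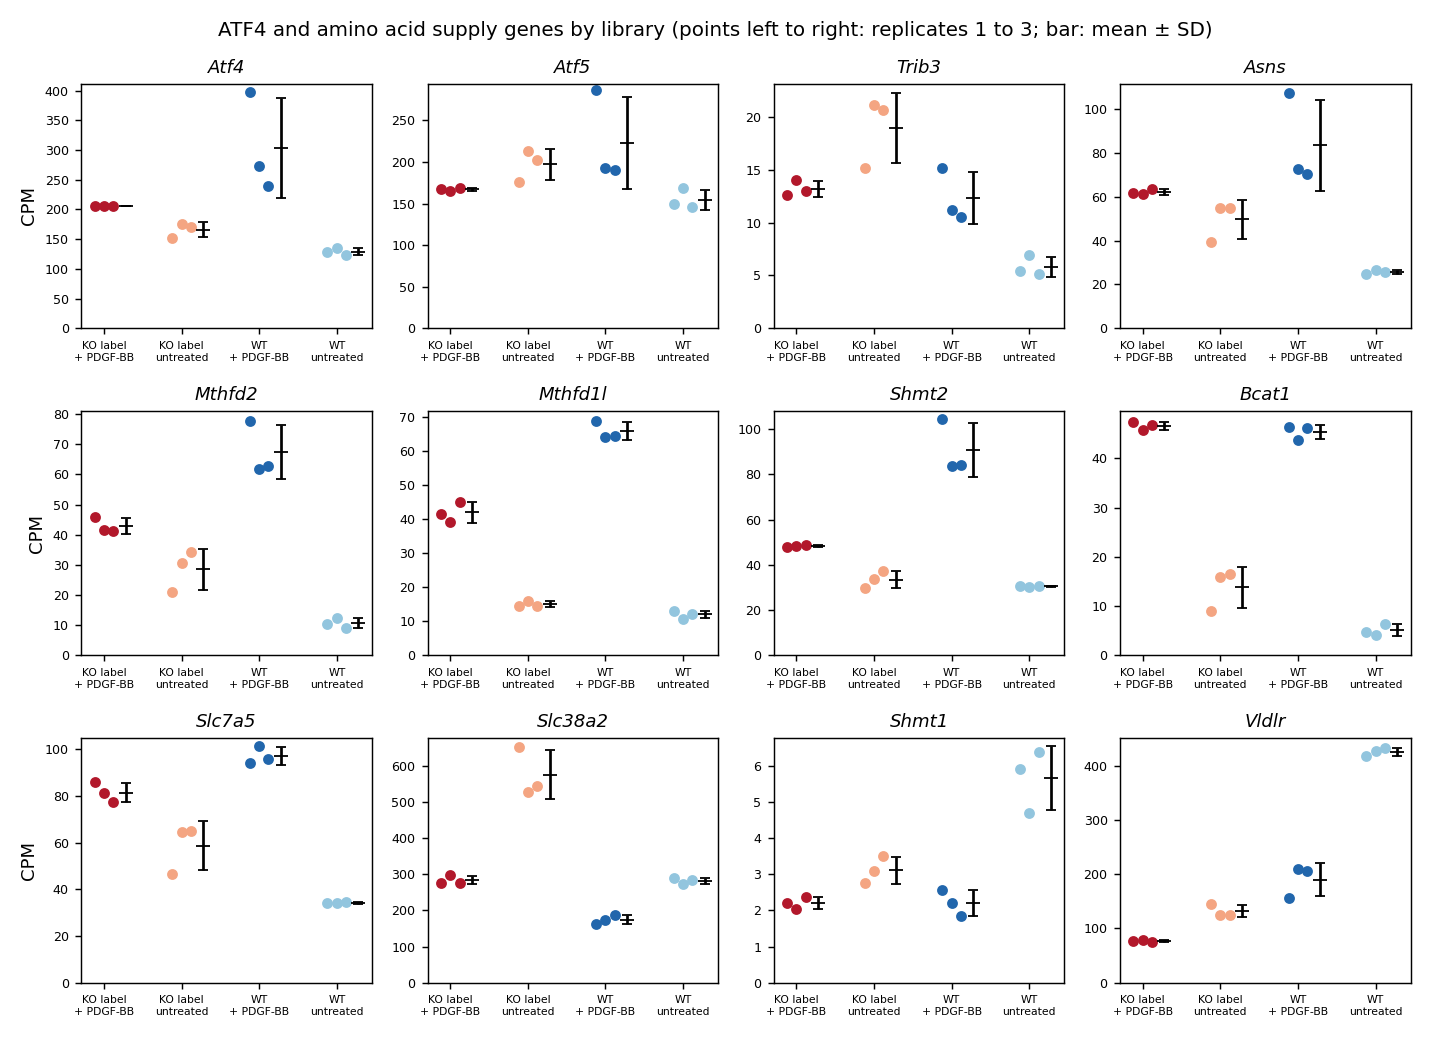
CPM of 12 of the genes in each library; points are replicates 1 to 3 of each group from left to right, bars are mean ± SD of 3 libraries, and every vertical axis starts at 0. Treated wild-type cells are the highest group for Atf4, Asns, Mthfd2, Mthfd1l and Shmt2, both treated groups are close for Bcat1, and untreated wild-type cells are highest for Shmt1 and Vldlr.

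Among the other amino acid enzymes, 4 of 8 rose with PDGF-BB in wild-type cells and 0 fell by limma, edgeR or DESeq2. In labelled knockout cells 3 rose and 2 fell, so that 50.0% were called in wild-type cells and 62.5% in labelled knockout cells, against 59.4% and 42.4% of all genes. At an unadjusted p under 0.05, limma gave 1 lower in wild-type cells, Cbs, and without the first treated wild-type library Cbs and Pck2 fell there. Bcat1, which passes amino groups between branched-chain amino acids and glutamate, had 47.4, 45.7 and 46.8 CPM in labelled knockout cells with PDGF-BB, against 8.96, 15.8 and 16.6 CPM untreated. Wild-type cells had 46.3, 43.7 and 46.2 CPM with PDGF-BB, against 4.73, 4.18 and 6.43 CPM untreated. The treated groups overlapped, and untreated wild-type cells were lowest. Bcat1 was the largest riser of the 41 under both labels, at 1.73 ± 0.18 (SE; adjusted p = 8.4e-06) and 2.94 ± 0.18 (SE; adjusted p = 3.1e-08). The smaller response under the knockout label, at a difference of −1.21 ± 0.26 (SE; adjusted p = 0.02), went with a higher untreated level, 1.25 (adjusted p = 0.00016). That interaction was lost in 7 leave-one-out fits (adjusted p of 0.053 to 0.061).

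Asns, which makes asparagine from aspartate and glutamine, had 61.7, 61.2 and 63.6 CPM in labelled knockout cells with PDGF-BB, against 39.5, 54.9 and 54.9 CPM untreated. In wild-type libraries it had 107, 72.8 and 70.4 CPM with PDGF-BB, against 24.8, 26.5 and 25.5 CPM untreated. The wild-type groups lay far apart and the first treated library was the highest. The log2 response was 0.33 ± 0.15 (SE; adjusted p = 0.089) under the knockout label and 1.64 ± 0.15 (SE; adjusted p = 8.9e-07) in wild-type cells, and they differed by −1.31 ± 0.21 (SE; adjusted p = 0.0037), or −1.12 without the first treated wild-type library. Untreated labelled knockout cells already stood above untreated wild-type cells, by 0.92 (adjusted p = 0.00035). Aldh18a1, the first enzyme of proline synthesis, rose by 0.42 (adjusted p = 0.0043) and 1.26 (adjusted p = 3.2e-07), with a difference of −0.83 (adjusted p = 0.006). Pycr1, the last enzyme of that route, gave −0.31 (adjusted p = 0.032) in labelled knockout and 0.19 (adjusted p = 0.14) in wild-type cells.

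Pck2, the mitochondrial enzyme that makes phosphoenolpyruvate, had 55.8, 59.8 and 54.5 CPM in labelled knockout cells with PDGF-BB, against 77.7, 101 and 108 CPM untreated. It had 77.5, 62.6 and 59.7 CPM in treated and 73.2, 78.3 and 73.3 CPM in untreated wild-type cells. Pck2 fell under the knockout label without overlap, at −0.73 ± 0.12 (SE; adjusted p = 0.00026), while the wild-type groups overlapped, at −0.18 (adjusted p = 0.21). Without the first treated wild-type library Pck2 also fell in wild-type cells, at −0.29 (adjusted p = 0.012). The interaction missed the threshold, at −0.55 (adjusted p = 0.085), and passed it with DESeq2 and without either library that stands apart (adjusted p of 0.016 to 0.031). Cbs and Cth turn homocysteine into cysteine. Cbs was low, at 3.59, 2.53 and 2.37 CPM in treated labelled knockout cells, against 1.52, 0.931 and 1.04 CPM in treated wild-type cells, a difference of 0.82 ± 0.22 (SE; adjusted p = 0.012) that ended without treated labelled knockout replicate 1 (adjusted p = 0.058). Cth rose with PDGF-BB under both labels, by 0.77 (adjusted p = 0.0022) and 0.80 (adjusted p = 0.001). The alanine aminotransferase Gpt2 was lower in treated labelled knockout than in treated wild-type cells, at −0.42 (adjusted p = 0.0043), and was called in no other comparison.

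The 9 amino acid transporters were called in every case in wild-type cells, with 7 rising and 2 falling, where 59.4% of all genes were called. In labelled knockout cells 3 rose and 3 fell, 66.7% called against 42.4% of all genes. Without PDGF-BB, 7 were higher and 2 lower under the knockout label, or 77.8% and 22.2% against 9.15% and 24.8% of all genes. The cationic amino acid carrier Slc7a1 had 207, 209 and 213 CPM in labelled knockout cells with PDGF-BB, against 94.6, 98.1 and 100.2 CPM untreated. It had 132, 197 and 208 CPM in treated wild-type cells, against 66.3, 66.5 and 66.8 CPM in untreated ones. It rose without overlap under both labels, by 1.10 ± 0.13 (SE; adjusted p = 1.6e-05) and 1.38 ± 0.13 (SE; adjusted p = 9e-07), and the first treated wild-type library was the lowest treated one. Without it the responses differed, by −0.49 (adjusted p = 4.8e-05), against −0.29 (adjusted p = 0.4) with it. Slc7a3, another cationic carrier, was low, with 1.34, 1.80 and 2.12 CPM in treated and 3.60, 3.14 and 2.502 CPM in untreated labelled knockout cells, and 3.16, 2.26 and 3.13 CPM in treated and 4.92, 4.23 and 5.54 CPM in untreated wild-type cells. The treated libraries were below the untreated ones under both labels, and it fell, at log2 differences of −0.57 (adjusted p = 0.01) under the knockout label and −0.62 (adjusted p = 0.0042) in wild-type cells. The fall under the knockout label was lost without treated labelled knockout replicate 1 (adjusted p = 0.055).

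Slc7a5 and Slc3a2 form the exchanger that brings in leucine. Slc7a5 averaged 81.5 ± 4.26 and 58.8 ± 10.7 CPM in treated and untreated labelled knockout cells, and 97.3 ± 3.83 and 34.2 ± 0.292 CPM in treated and untreated wild-type cells (SD, n = 3 each). Its response of 0.48 ± 0.11 (SE; adjusted p = 0.0026) under the knockout label was smaller than that of 1.48 ± 0.11 (SE; adjusted p = 1.1e-07) in wild-type cells, with a difference of −0.999 (adjusted p = 0.0027). Slc3a2 rose by 0.38 (adjusted p = 0.0036) in wild-type cells and gave 0.09 (adjusted p = 0.47) in labelled knockout cells, where it was already higher untreated, by 0.56 (adjusted p = 0.00047). Slc7a11, which pairs with Slc3a2 to exchange cystine for glutamate, had 4.19, 4.81 and 7.62 CPM in untreated labelled knockout cells, against 1.45, 1.43 and 1.43 CPM in untreated wild-type cells, a difference of 1.39 ± 0.21 (SE; adjusted p = 0.00025) without overlap.

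Slc38a2, a sodium-coupled carrier of small neutral amino acids, moved against most transporters. It had 277, 298 and 277 CPM in labelled knockout cells with PDGF-BB, against 653, 529 and 545 CPM untreated, and 163, 172 and 187 CPM in treated wild-type cells, against 289, 273 and 285 CPM in untreated ones. Treated cells were lower without overlap under both labels, at log2 differences of −1.01 ± 0.08 (SE; adjusted p = 8.7e-07) and −0.69 ± 0.08 (SE; adjusted p = 1.1e-05). Labelled knockout cells were higher than wild-type cells in both states, by 1.02 (adjusted p = 7.6e-07) untreated and 0.70 (adjusted p = 2.2e-05) with PDGF-BB. Slc1a5, the glutamine carrier, had 23.2, 23.5 and 24.5 CPM in treated labelled knockout cells, against 49.8, 49.6 and 42.0 CPM in treated wild-type cells. Its untreated values were 25.2, 25.3 and 25.7 CPM under the knockout label, against 42.6, 39.4 and 36.5 CPM in the wild type. Labelled knockout libraries were lower throughout, at log2 differences of −0.96 ± 0.08 (SE; adjusted p = 1.5e-06) and −0.61 ± 0.08 (SE; adjusted p = 8.3e-05).

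Slc1a4, a close relative that carries alanine, serine and cysteine, rose by 0.73 (adjusted p = 4.3e-06) under the knockout label and 1.37 (adjusted p = 7e-09) in wild-type cells, with a difference of −0.64 (adjusted p = 0.0035). Slc6a9, a glycine carrier, had 8.53, 8.22 and 6.62 CPM in treated labelled knockout cells, against 12.2, 15.5 and 13.1 CPM in those untreated. The wild-type values were 7.59, 10.7 and 8.77 CPM with PDGF-BB, against 6.93, 6.87 and 6.67 CPM untreated. PDGF-BB went with less Slc6a9 under the knockout label, −0.73 ± 0.13 (SE; adjusted p = 0.00066), and slightly more in wild-type cells, 0.34 ± 0.13 (SE; adjusted p = 0.039). The interaction of −1.08 ± 0.19 (SE; adjusted p = 0.0066) held in every setting tried. Exons of antisense neighbours overlap 30.2% of the Slc6a9 exons, so some of its reads could belong to them.

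The remaining 4 genes encode secreted factors, a lipoprotein receptor and a transfer RNA exporter. Gdf15, a stress hormone that curbs appetite, had 18.0, 19.2 and 21.7 CPM in treated labelled knockout cells, against 13.6, 8.44 and 7.11 CPM in treated wild-type cells. Untreated, it had 23.8, 28.02 and 27.9 CPM under the knockout label, against 10.1, 9.47 and 10.3 CPM in the wild type. It was higher under the knockout label in both states, by 0.99 ± 0.17 (SE; adjusted p = 0.00059) and 1.33 ± 0.17 (SE; adjusted p = 5.1e-05). With all libraries it was not called for PDGF-BB under either label. Without the first treated wild-type library it fell, at log2 differences of −0.42 (adjusted p = 0.0011) in labelled knockout and −0.33 (adjusted p = 0.012) in wild-type cells. Stc2, a secreted glycoprotein, had 8.85, 9.14 and 9.43 CPM in treated labelled knockout cells, against 5.53, 5.92 and 5.89 CPM in treated wild-type cells. It rose with PDGF-BB by 0.82 (adjusted p = 2.5e-05) and 0.65 (adjusted p = 7.8e-05), and was higher under the knockout label by 0.58 (adjusted p = 0.0005) with PDGF-BB and 0.42 (adjusted p = 0.0047) without it.

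Vldlr, a receptor for lipoproteins rich in triglyceride that stress can induce through ATF4, moved against most of the set. It had 77.0, 78.4 and 75.0 CPM in treated and 145, 125 and 125 CPM in untreated labelled knockout cells, and 156, 209 and 206 CPM in treated and 418, 427 and 433 CPM in untreated wild-type cells. All 4 groups were apart, with treated below untreated and labelled knockout below wild type at each step. The log2 differences were −0.77 ± 0.10 (SE; adjusted p = 4.6e-05) and −1.17 ± 0.10 (SE; adjusted p = 4.9e-07) for PDGF-BB, and −1.69 ± 0.10 (SE; adjusted p = 4.9e-08) untreated and −1.29 ± 0.10 (SE; adjusted p = 4.4e-07) with PDGF-BB for the knockout label. Xpot, which exports transfer RNA from the nucleus, rose by 0.38 (adjusted p = 0.002) and 0.91 (adjusted p = 7.3e-07), with a difference of −0.53 (adjusted p = 0.02).

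**Figure D5:**
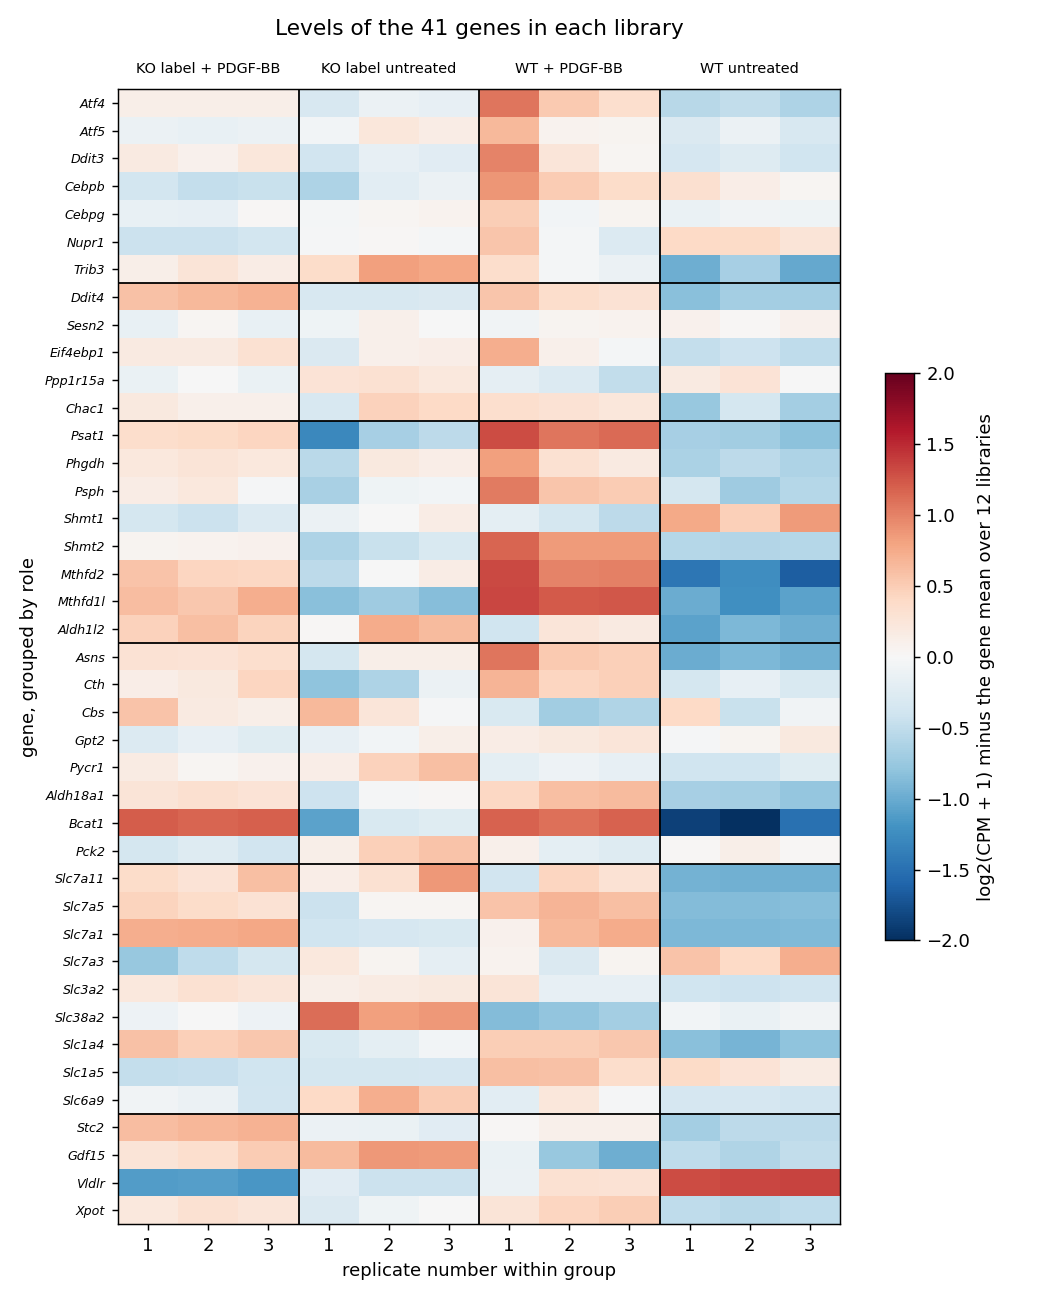
Level of each of the 41 genes in the 12 libraries, as log2(CPM + 1) minus the mean of that gene over all libraries, with genes grouped by role and groups of 3 libraries side by side. The untreated wild-type libraries are the lowest group for Mthfd2, Bcat1 and Asns and the highest for Shmt1 and Vldlr, and the first treated wild-type library is darker than its group for Atf4 and Ddit3.

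The 9 genes with the promoter core shown above did not share 1 pattern. With all libraries in the fit, PDGF-BB in wild-type cells gave these calls: Asns, Slc1a4, Slc7a11, Trib3 and Chac1 rose, Vldlr fell, and Nupr1, Pck2 and Pycr1 were not called. In labelled knockout cells only Slc1a4 of the 9 rose, Trib3, Vldlr, Nupr1, Pck2 and Pycr1 fell, and Asns, Slc7a11 and Chac1 were not called. The members with the largest rises, Bcat1, Mthfd2, Mthfd1l and Psat1, held no core in this window.

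Levels per length, as CPM per kilobase of exon, put Nupr1 highest of the 41 in untreated wild-type cells, at 193, followed by Atf5 at 77.6 and Atf4 at 54.6. The lowest were Slc7a11 at 0.10 and Cbs at 0.28 on that scale.

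Other genes of the pathway gave a mixed picture. All 15 kinase and initiation factor genes of the integrated stress response were measured. PDGF-BB raised 8 of them in labelled knockout cells, or 53.3% against 17.6% of all genes. It raised 11 and lowered 1 in wild-type cells, or 73.3% and 6.67% against 25.0% and 34.4% of all genes. The initiation factor subunits Eif2s1 and Eif2b3 rose under both labels, by 0.72 (adjusted p = 4.2e-06) and 0.68 (adjusted p = 0.00019) under the knockout label and by 0.97 (adjusted p = 1.2e-07) and 1.10 (adjusted p = 1.4e-06) in the wild type. With PDGF-BB 7 of the 15 were lower under the knockout label, or 46.7% against 26.6% of all genes, among them Eif2b2 at −0.56 (adjusted p = 0.003). TMM scaling left 2, and it left 2139 of all genes lower, against 3777 with the deposited scaling. The interaction was called for 0 of the 15 by limma, with 8 lower at an unadjusted p under 0.05, and for 2 and 3 by edgeR and DESeq2, all lower. Of 13 other ATF4 and CHOP targets that passed the filter, 5 rose and 4 fell in labelled knockout cells, and 6 rose and 5 fell in wild-type cells. That is 69.2% and 84.6% called, against 42.4% and 59.4% of all genes. The interaction was called for 0 of them by limma, edgeR and DESeq2, with 1 lower at an unadjusted p under 0.05 by limma. Among these the endoplasmic reticulum protein gene Creld2 rose by 0.80 (adjusted p = 0.00099) and 1.12 (adjusted p = 3.7e-05), and the repressor gene Jdp2 fell, at log2 differences of −1.04 (adjusted p = 1.2e-06) and −0.98 (adjusted p = 8.3e-07).

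Of 16 other amino acid transporters, 5 rose and 5 fell with PDGF-BB in labelled knockout cells, and 4 rose and 7 fell in wild-type cells. The shares called were 62.5% and 68.8%, against 42.4% and 59.4% of all genes. Without PDGF-BB, 2 were higher and 8 lower under the knockout label, or 12.5% and 50.0% against 9.15% and 24.8% of all genes. With PDGF-BB 4 were higher and 4 lower, 25.0% each, against 10.6% and 26.6% of all genes. Slc7a8, a neutral amino acid exchanger, and Slc6a6, the taurine carrier, had the interactions that limma called in this list with all libraries. Both were toward a higher response under the knockout label, at 1.32 ± 0.21 (SE; adjusted p = 0.0036) and 0.68 ± 0.17 (SE; adjusted p = 0.037). In this list edgeR called 1 higher and DESeq2 3 higher, with 0 lower by either. Without the first treated wild-type library limma called 3 higher and 2 lower. Of 31 other amino acid and one-carbon enzymes, 8 rose and 7 fell in labelled knockout cells, and 8 rose and 9 fell in wild-type cells, which is close to the background (48.4% and 54.8%, against 42.4% and 59.4% of all genes). Got1, the cytosolic aspartate aminotransferase, rose by 0.71 (adjusted p = 0.00039) and 1.56 (adjusted p = 2.2e-07), with an interaction of −0.85 (adjusted p = 0.014). The cytosolic folate enzyme Mthfd1 was higher under the knockout label without PDGF-BB, at 0.67 (adjusted p = 1.5e-05).

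Of 24 mTORC1 and nutrient sensing genes, 2 rose and 10 fell with PDGF-BB in labelled knockout cells, or 8.33% and 41.7% against 17.6% and 24.8% of all genes, and TMM gave 5 higher and 9 lower. In wild-type cells 6 rose and 9 fell, 25.0% and 37.5%, close to the 25.0% and 34.4% of all genes. The stress-induced sestrin Sesn1 and the arginine sensor relative Castor2 fell under both labels, at −1.26 (adjusted p = 5.4e-07) and −1.23 (adjusted p = 3.1e-06) under the knockout label and −1.60 (adjusted p = 2.6e-08) and −1.46 (adjusted p = 2.9e-07) in the wild type. Without PDGF-BB, 1 of the 24 was higher under the knockout label and 10 were lower, or 4.17% and 41.7% against 9.15% and 24.8% of all genes. TMM gave 2 higher and 4 lower. The 1 higher gene was Deptor, an inhibitor of mTOR, at 1.26 (adjusted p = 3.5e-05). Deptor also had the interaction that limma called in this list with all libraries, −1.18 ± 0.22 (SE; adjusted p = 0.0088), while edgeR called 2 and DESeq2 3, all lower. Mtor itself was lower under the knockout label, at −0.81 (adjusted p = 0.00022) with PDGF-BB and −0.64 (adjusted p = 0.0013) without it.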

How the data were processed

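RNA sequencing of 12 libraries was analysed, 3 in each of 4 groups. The deposited table is named for FPKM, but its values are CPM, reads per 1000000 reads counted: each library sums to 1000000, and after division by the value of 1 read all values were whole within 0.001 (100%). Per the submitters' processing notes, HISAT2, HTSeq and build mm10 were used, with versions not given in the sources used here. Per the labels' protocols, total RNA went into stranded mRNA libraries, and the strand setting of the counting is not given in the sources used here. Depth was 14953807 to 21698488 reads, so that 1 read was worth at most 0.0669 CPM.

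Genes at 1 CPM or more in at least 3 libraries were kept (14202; 25008 genes were at 0 in all). Values of log2(CPM + 1) were fitted with limma 3.58.1 in R 4.3.3 (trended empirical Bayes, 1 mean per group, all 12 libraries in 1 fit) for 5 contrasts, with Benjamini-Hochberg adjustment over all genes tested and a threshold of 0.05. The interaction is the response in labelled knockout cells minus that in wild-type cells. The script was tested on simulated data. Alternatives were pseudocounts of 0.5 and 0.1, no filter, a mean of at least 5 CPM, TMM scaling, quantile normalization, edgeR 4.0.16 and DESeq2 1.42.0 on the recovered reads, the compared groups alone, the replicate number as a block, and each library left out in turn. A fit without both libraries that stand apart was added after seeing the data.

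The members and gene lists were chosen with earlier results of these data known. All members could be named; values by library are given for Atf4, Tigar and the 5 largest called rises and falls of each comparison, and for Atf5, added after its values were seen, and other pathway genes are named, at most 3 per list and comparison, by size of change. Coordinates are those of the deposited annotation and were identical to GENCODE M21 for all 41 members.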

Additional observations from a re-analysis of the deposited data

Results flagged for a closer look

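The response to PDGF-BB differed between labelled knockout and wild-type cells for 13 of the 41 genes, by the interaction term of the limma fit with Benjamini-Hochberg adjustment. In each the log2 response was smaller, or of opposite sign, under the knockout label. The differences in log2 response were −1.96 for Mthfd2, −1.43 for Trib3, −1.31 for Asns, −1.21 for Bcat1, −1.08 for Slc6a9, −1.01 for Shmt2 and −0.999 for Slc7a5. They were −0.94 for Mthfd1l, −0.89 for Atf4, −0.83 for Aldh18a1, −0.73 for Atf5, −0.64 for Slc1a4 and −0.53 for Xpot. All 13 stayed below 0 in each of the 22 alternative settings, and 9 of them stayed past the threshold in each. Tigar RNA was higher under the knockout label, and the summed endothelial markers were 552 to 663 CPM in the labelled knockout groups, against 72.3 to 94.3 CPM in the wild-type groups. The part of either in these differences was not tested.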

How the results depend on the processing

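Of the member results under all alternatives, 4293 kept their side of the threshold or had no adjusted p, 194 lost their call, 161 gained one and 1 reversed. A change of direction counted as reversed only where the result was called with all libraries or in the alternative. Elsewhere it was counted among the 4293. The 1 reversed was Eif4ebp1 in labelled knockout against wild-type cells with PDGF-BB, at 0.19 without both libraries that stand apart, an alternative chosen after seeing the data. The cause of the changes below was not tested.

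For PDGF-BB in labelled knockout cells, the members that fell numbered 6 with no filter. Their median was 0.16 at a mean of at least 5 CPM, 0.088 with TMM and 0.15 with quantile normalization, and leaving out single libraries gave 5 to 12 falls and medians of 0.035 to 0.12. For PDGF-BB in wild-type cells, 3 members fell at a mean of at least 5 CPM, where the median was 0.82. The median was 0.84 with TMM, 0.85 with quantile normalization, 0.93 with edgeR and 0.91 with DESeq2. Single libraries gave 5 to 9 falls and medians of 0.68 to 0.87, and without both libraries that stand apart 9 fell with a median of 0.68.

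For the label difference without PDGF-BB, 3 members were lower at a mean of at least 5 CPM and with TMM, quantile normalization, edgeR and DESeq2, with medians of 0.52 (TMM), 0.57 (edgeR) and 0.58 (DESeq2). Single libraries gave 3 to 6 lower, and without both libraries 7500 genes were called, against 4823. For the label difference with PDGF-BB, the median was −0.10 with TMM, −0.11 with quantile normalization, −0.12 with edgeR and −0.097 with DESeq2. The fit of the compared groups alone called 3438 genes and 4 higher members. Single libraries gave 4 to 8 higher members and medians of −0.23 to −0.12, and the median was −0.12 without both libraries.

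For the interaction, 371 genes were called with no filter and 910 with DESeq2, which called 21 lower members. Single libraries gave 272 to 1548 genes, 0 to 2 higher and 9 to 22 lower members, and medians of −0.63 to −0.44. Without both libraries 2257 genes, 26 lower and 2 higher members were called.

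Correlations of deviations from the group means ran from −0.231 to 0.175 between same-numbered libraries of different groups, and from −0.34 to 0.347 between differently numbered ones. With 3 libraries per group these values cannot settle whether the numbers pair libraries, and pairing within a label was not fitted. With the replicate number as a block shared by all 4 groups, 13 members rose and 9 fell in labelled knockout cells and 28 rose and 6 fell in wild-type cells. The label difference was called higher for 20 and lower for 5 without PDGF-BB, where Eif4ebp1, Phgdh and Pck2 were lost, and for 6 and 13 with it. The interaction was called for 13, all lower, with Atf5 lost (adjusted p = 0.078) and Aldh1l2 gained (0.023). Cbs rests on as few as 14 reads in a library and Slc7a11 on 23.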
